A study of Mus musculus with 25 samples.

Results

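Left ventricular mRNA of 5 WT HFHS + Carnosine mice was compared with that of 5 WT CNTL mice, 10 of the 25 mice sequenced, to see which gene changes of a high fat, high sucrose diet remained in hearts of animals that also drank carnosine. The members were taken from the sample labels by genotype, diet and treatment, with each library matched by its header name. All 10 were male, WT littermates of GPx4+/- mice on a C57BL6/J background, placed on a diet at 8 to 10 weeks of age for 16 weeks. CNTL diet held fat at 6% of kcal, whereas HFHS diet held lard-based fat at 35.5%, cholesterol at 1.5% and sucrose at 38% of kcal. Carnosine was given at 80 mM in drinking water from week 7 of the HFHS diet. The other mice used here were 5 WT HFHS, 5 GPx4+/- CNTL and 5 GPx4+/- HFHS, which had the same diets with no carnosine; GPx4+/- mice carry 1 working copy of the gene for glutathione peroxidase 4, the enzyme that reduces lipid peroxides in membranes. There was no group with carnosine on the CNTL diet, so the effect of both together was measured against CNTL, and that of diet alone had to be read from other mice. Animals had a bolus of dextrose or saline after a fast before the tissue was taken, and the labels do not say which mouse had which.

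The adult heart burns mainly fatty acids, which enter mitochondria as carnitine esters and are shortened by beta-oxidation. Long-chain fatty acids activate PPAR alpha, a nuclear receptor that raises transcription of genes for this route, and a diet rich in fat is known to shift fuel use further towards fat and away from glucose and ketones. Carnosine is a dipeptide of beta-alanine and histidine that binds reactive aldehydes and metal ions and is stored in muscle.

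Values are TPM summed to genes and scaled between libraries (scaled TPM), and differences are on the log2(scaled TPM + 0.5) scale with limma, which understates the change of genes near 1 scaled TPM. Mitochondrial transcripts took 35.6 to 43.4% of TPM in the 10 libraries, and 11652 to 12199 genes reached 1 TPM. Marker genes of ventricular cardiomyocytes summed to 41556 to 48002 scaled TPM in WT CNTL and to 38055 to 44485 in WT HFHS + Carnosine, and all 8 were detected in every mouse. WT CNTL replicate 3 stood apart with an atrial marker sum of 4862 against 164 to 192 in the other CNTL mice, and WT HFHS + Carnosine replicate 2 had 677 against 129 to 159, so counts are also given without these 2 mice. WT HFHS replicate 1 had 330 against 65.7 to 200 in the other WT HFHS mice, and stayed in those counts. In whole tissue, fewer cells of a type and less RNA per cell cannot be told apart.

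With diet and carnosine together, 80 of 11983 genes differed from WT CNTL at an adjusted p under 0.05, which is 0.668% of those tested. Of these, 51 were higher (0.426% of all tested) and 29 lower (0.242%), a balance that turned with TPM as deposited, where the median of all genes lay at -0.07 and 39.5% of 38 called genes were higher. Fatty acid genes were among the higher ones, such as Dbi, the acyl-CoA binding protein, and the beta-oxidation enzymes Ech1 and Decr1. The lower ones included Oxct1, which begins the breakdown of ketone bodies, and Slc16a7, a plasma membrane carrier of pyruvate and lactate. Changes were small for most genes, with a median size of 0.49 on the log2 scale over the 80 and 9 genes above 1, while the median size over all genes tested was 0.08. In 75 of the 80 the 5 treated mice did not overlap the 5 CNTL mice, against 391 of all 11983 genes (3.26%). Without the 2 mice with high atrial genes the count was 37. It also fell to 26, 27 and 50 without WT CNTL replicates 2, 4 and 5 and to 43, 47 and 47 without WT HFHS + Carnosine replicates 1, 2 and 3, and rose to 155 without WT HFHS + Carnosine replicate 4, so calls near the threshold rest on single mice.

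Several enzymes of fatty acid handling rose. Ech1 (chromosome 7, 28825217 to 28832247, GRCm38), an isomerase for unsaturated acyl-CoA and a PPAR alpha target, rose from 1392 ± 114 to 1996 ± 204 scaled TPM (log2 difference 0.52, adjusted p = 0.0238). Decr1, the reductase needed to oxidise polyunsaturated acids, had 173, 182, 155, 175 and 185 in CNTL mice and 230, 292, 239, 241 and 245 under HFHS with carnosine (0.52, adjusted p = 0.0204). Cpt2, which frees acyl groups from carnitine inside mitochondria, rose 1.26 times, with 130 to 153 in CNTL and 158 to 190 in treated mice (0.33, adjusted p = 0.0276). All 3 genes had no overlap between groups. Dbi had 182, 177, 168, 164 and 181 against 268, 319, 258, 236 and 279 (0.63, SE 0.08, adjusted p = 0.00423).

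Oxct1, Slc16a7 and Ucp3 fell. Oxct1 had 628, 674, 528, 672 and 672 scaled TPM in CNTL mice and 457, 426, 477, 510 and 467 with HFHS and carnosine, so its mean dropped to 0.736 of that in CNTL (log2 difference -0.44, adjusted p = 0.022). Slc16a7 had 4.04 to 5.75 in CNTL and 1.30 to 2.70 in treated mice (-1.13, SE 0.17, adjusted p = 0.00756). Ucp3, an uncoupling protein of the inner mitochondrial membrane and itself a PPAR alpha target, had 77.7, 57.6, 64.3, 54.3 and 71.2 against 19.0, 29.7, 27.6, 52.2 and 23.4 (-1.16, adjusted p = 0.0438). For Ucp3 the groups did not overlap, but the highest treated mouse, replicate 4, lay just under the lowest CNTL mouse.

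**Figure D1:**
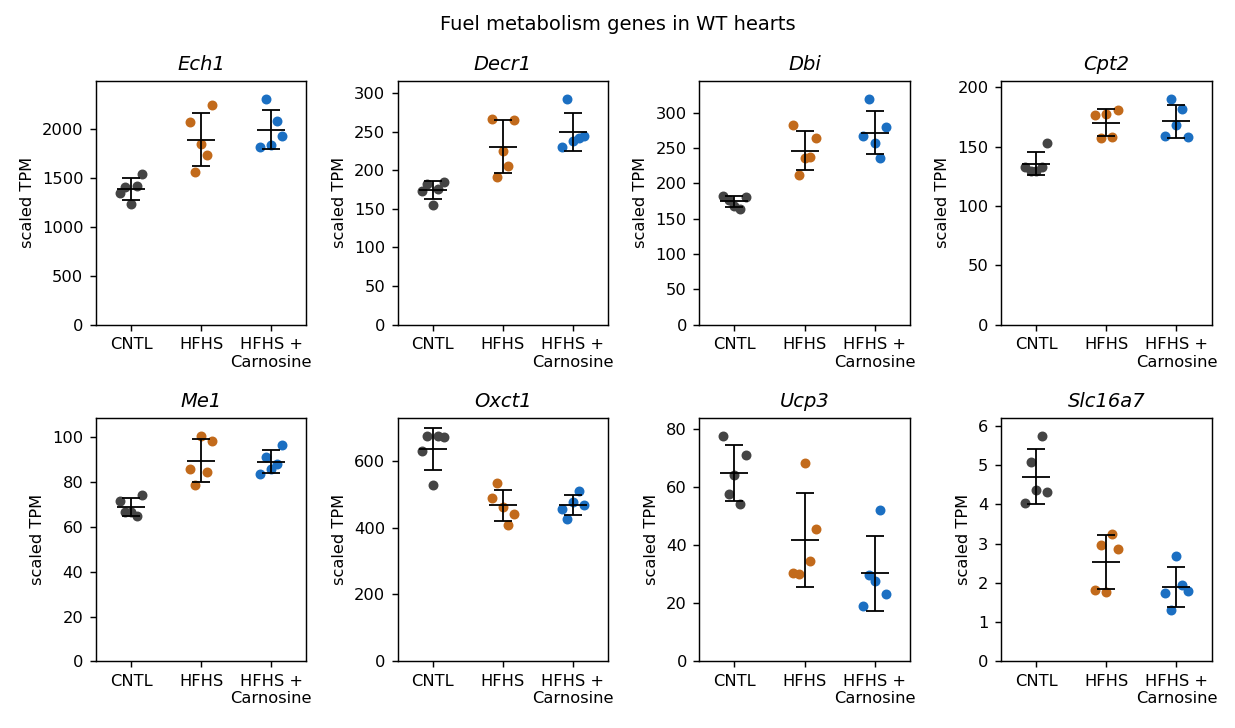
Scaled TPM of 8 genes of fuel metabolism in the 15 WT mice; each point is 1 mouse (n = 5 a group), and bars show the mean and SD. For all 8 genes the HFHS + Carnosine mice do not overlap the CNTL mice, and for Slc16a7 they span 1.30 to 2.70 against 4.04 to 5.75.

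Read by list, the fatty acid routes did not move as 1 block. Of 25 PPAR alpha targets 20 were tested, among which Ech1 rose and Ucp3 fell. 14 of the 20 lay above 0 and the median difference was 0.20, against -0.00 over all genes. At an unadjusted p under 0.05 there were 11 higher and 5 lower of the 20, where 1629 of all 11983 genes (13.6%) were. Pdk4, the kinase that closes the pyruvate dehydrogenase gate, is a classical target too, and its values ran the other way and were wide, at 565, 341, 561, 344 and 572 in CNTL and 99.8, 149, 259, 507 and 235 in treated mice (-1.11, 95% interval -1.93 to -0.28, adjusted p = 0.204). Cpt1a, the outer membrane carnitine transferase found mostly outside muscle, had 23.5 to 29.0 against 16.6 to 23.1 with an adjusted p of 0.0518. Of the 20 tested genes of fatty acid oxidation and ketone use, Decr1 and Cpt2 rose and Oxct1 fell, against 0.668% of all genes called. 15 of the 20 lay above 0, the median was 0.11, and 8 higher and 3 lower genes (55%) had an unadjusted p under 0.05. Without the 2 mice with high atrial genes the medians of these lists were 0.13 and 0.07, Oxct1 still passed, and Ech1, Ucp3, Decr1 and Cpt2 had adjusted p of 0.0792, 0.103, 0.068 and 0.0913. The calls of Ucp3, Ech1, Cpt2, Decr1, Oxct1 and Me1 were each lost without 1 or more single mice, with an adjusted p of at most 0.0973 (Ucp3). Among 20 tested genes of uptake, lipid droplets and triglyceride turnover only Dbi passed, with a median of -0.08. Among 24 tested genes of sterol and fatty acid synthesis Me1, the cytosolic malic enzyme that supplies NADPH, rose from 65.0 to 74.2 in CNTL to 83.4 to 96.6 (0.37, adjusted p = 0.022). Pdk4 and Cpt1a were chosen after their values were seen. The share of dextrose and saline mice in each group is not known, and the part of the last feeding state in these genes was not tested.

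The gene with the smallest p was Vwa8, a mitochondrial ATPase domain protein, which had 69.8, 68.9, 67.1, 69.9 and 79.7 scaled TPM in CNTL and 94.8, 100.3, 99.5, 112.8 and 102.8 with HFHS and carnosine (log2 difference 0.52, SE 0.06, adjusted p = 0.00119). Lgals1, the galactoside binding lectin galectin-1, rose from 161 ± 9.01 to 227 ± 23.7 (0.49, adjusted p = 0.00461). Pde11a, a phosphodiesterase of cyclic nucleotides, rose from 0.781 ± 0.260 to 2.23 ± 0.400 (1.10, adjusted p = 0.00461). These 3, with Dbi and Slc16a7, kept their call under every alternative in which they were tested. Nacc2, Aplp2, Tesc, Ephx2 and Fbp2 were next among the higher genes by p, with log2 differences of 0.43, 0.32, 0.50, 0.48 and 0.43. Ephx2 is the soluble epoxide hydrolase that opens epoxides of fatty acids, and Fbp2 is the muscle form of fructose bisphosphatase.

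Gcat, Rragb and Chac1 were among the lower genes. Gcat, which splits a product of threonine into glycine, had 9.51, 12.3, 10.1, 11.5 and 12.2 scaled TPM in CNTL and 6.42, 6.95, 6.84, 7.67 and 4.97 with HFHS and carnosine (-0.72, SE 0.11, adjusted p = 0.00761). Rragb, a GTPase that reports amino acids to mTORC1, had 1.35 to 2.21 against 0.332 to 0.796 (-0.96, adjusted p = 0.019). Chac1, which degrades glutathione and is a target of the stress factor ATF4, had 5.36 to 7.62 against 2.44 to 5.26 (-0.81, adjusted p = 0.022). None of the 3 overlapped between groups. Asl, Gnmt and Abat, picked after their values were seen and so no sign of a theme, are enzymes of arginine, glycine and beta-alanine or GABA handling, and fell by 0.64, 0.79 and 1.33 on the log2 scale (adjusted p = 0.0321, 0.0369 and 0.0358). Abat had 11.5 in WT CNTL replicate 3 against 4.25 to 6.38 in the other CNTL mice. Apoc1, an apolipoprotein near the floor of the assay, had 0.518 to 1.73 against 0 to 0.301 (-1.20, adjusted p = 0.0139). Apoc1 passed the filter on low values only through GPx4+/- mice, since its mean over the 15 WT mice was 0.501, and with a minimum mean of 5 its adjusted p was 0.0682. Besides Apoc1, Rragb was the only called gene with a mean under 1 in WT mice (0.977). Asl, Gnmt and Apoc1 are most abundant in liver, and hepatocyte markers other than Trf summed to 1.69 to 7.02 (median 6.68) in CNTL and 1.89 to 5.14 (median 2.39) with carnosine; the part of liver RNA in these values was not tested. Zc3h6, Ifit1bl1, Scgb1c1 and Cdkl1 made up the rest of the 10 lower genes, at -0.50, -0.56, -1.02 and -0.83, and Ifit1bl1 shares much of its sequence with Ifit1bl2, so reads of the pair may be split between them.

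The integrated stress response, in which ATF4 raises genes of amino acid and one-carbon supply, held changes in both directions. Mthfd2, a mitochondrial folate enzyme, rose from 1.26, 1.28, 1.73, 1.66 and 1.33 scaled TPM to 2.98, 2.67, 4.37, 2.39 and 4.51 (0.96, adjusted p = 0.0174) while Chac1 fell. These were 2 of 24 tested members, against 0.668% of all genes, and the call of Chac1 was lost in 9 alternatives, 5 of them with a single mouse left out (adjusted p of at most 0.0583 in those 5). 14 of the 24 were above 0, with a median of 0.03, and 6 higher and 4 lower (41.7%) had an unadjusted p under 0.05, against 13.6% of all genes. Asns, a standard ATF4 target that makes asparagine and was picked after its value was seen, differed by 0.31 (adjusted p = 0.58), and it and the rest of the list did not pass. Hspb8, a small heat shock protein of muscle, was the 1 of 27 tested members of the heat shock list to pass, at 281 to 325 against 360 to 402 (0.29, adjusted p = 0.0244), and 3 of the 27 (11.1%) were under 0.05 unadjusted. Its call was lost in 10 alternatives, 5 of them with a single mouse left out. Hspa12a, a distant relative of the HSP70 chaperones that is not on the list and was picked after its value was seen, also rose (0.27, adjusted p = 0.0204).

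Promoter letters were described for the called genes. RefSeq windows of 250 bases before to 50 after a start (GRCm38.p6) were found for 61 of the 80, as 76 promoters. DR1, the site type of PPAR alpha (the letters AGGNCA repeated with 1 base between, on either strand), was in 0 of the 76, against 0.381% of all promoters and 0.205% of those of tested genes. The estrogen-related receptor site TNAAGGTCA, also on either strand, was in 0, against 1.28% and 0.733%. At shares this low a count of 0 in 76 promoters says nothing about either factor. The E-box CACGTG was in 7, or 9.21%, against 7.15% of all promoters and 9.86% of those of tested genes, and the C/EBP-ATF letters TGATGNAA on either strand in 3, or 3.95%, against 3.97% and 2.22%. Windows are shown for Chac1 and Capn3, which hold the C/EBP-ATF letters and moved in opposite directions, and for Rragb, which holds 3 E-boxes; capitals mark the match, on the reverse strand in Chac1 and Capn3, and a match is a description only.
Chac1, chr2:119351029-119351076, + strand: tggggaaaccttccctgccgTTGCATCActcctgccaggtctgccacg
Capn3, chr2:120476837-120476884, + strand: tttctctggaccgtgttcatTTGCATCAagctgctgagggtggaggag
Rragb, chrX:153139902-153139947, + strand: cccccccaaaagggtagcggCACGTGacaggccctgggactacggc
Capn3, a calcium-dependent protease of muscle chosen for these letters, rose from 1.25 to 1.66 scaled TPM in CNTL to 2.00 to 2.61 (0.60, adjusted p = 0.024).

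Genes for membrane proteins were also among those that rose. Scn4b, a beta subunit of the cardiac sodium channel, had 26.3, 19.9, 23.5, 19.9 and 25.8 scaled TPM in CNTL and 36.4, 39.5, 38.0, 39.3 and 39.9 with HFHS and carnosine (0.74, SE 0.13, adjusted p = 0.0188). Kcnj14, an inward rectifier potassium channel, had 0.400 to 0.802 against 0.931 to 2.10 (0.76, adjusted p = 0.04). Nkain1, which interacts with the sodium pump, had 5.04 to 7.42 against 9.10 to 10.9 (0.75, adjusted p = 0.0139). Scn4b and Kcnj14 were the 2 of 35 tested members of the calcium cycling and ion channel list to pass, against 0.668% of all genes, and 10 (28.6%) had an unadjusted p under 0.05. The list's median was 0.07 with 22 above 0. Cacna2d1, a subunit of voltage-gated calcium channels that is not on the list and was picked after its value was seen, rose too (0.30, adjusted p = 0.0262). The call of Kcnj14 was lost under 16 of 24 alternatives, with an adjusted p of up to 0.114.

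The question of what remains under carnosine was asked first with mice that no WT comparison shares. In GPx4+/- mice, HFHS against CNTL gave 124 genes (1.03% of those tested), 81 higher (0.676%) and 43 lower (0.359%). This list depends on scaling and on single mice. With TPM as deposited, where the median of all genes lay at -0.10, 12.5% of 144 called genes were higher against 65.3% of the 124. Without any 1 of GPx4+/- CNTL replicates 1, 4 and 5 and GPx4+/- HFHS replicates 1, 3 and 5 the count was 18 to 33. Atrial markers had a median of -1.14 in this GPx4+/- comparison, with 0 of 10 above 0 and 0 called, and their part was not tested. In WT HFHS + Carnosine against WT CNTL, 120 of the 124 had the same direction as in GPx4+/- mice, where 8174 of all 11983 genes did. 31 of the 124 passed the test (25%, against 0.668% of all genes), all in that direction, and 15 did without the 2 mice with high atrial genes. With 1 mouse left out of any group, and the list made anew, this count was 5 (without GPx4+/- CNTL replicate 5) to 40 (without WT HFHS + Carnosine replicate 4). The median difference of the 124, signed by their change in GPx4+/- mice, was 0.45 in those mice, 0.30 in WT HFHS + Carnosine and 0.29 in WT HFHS, both against WT CNTL. The first of these medians was measured in the mice that chose the list, and the parts of that choice and of genotype in the gap were not tested. The 4 exceptions were AC122306.1, Mutyh, Gm34302 and Cab39, none of which passed in WT mice. With the list held fixed, 119 to 122 of the 124 kept their direction in the alternatives that tested all of them.

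**Figure D2:**
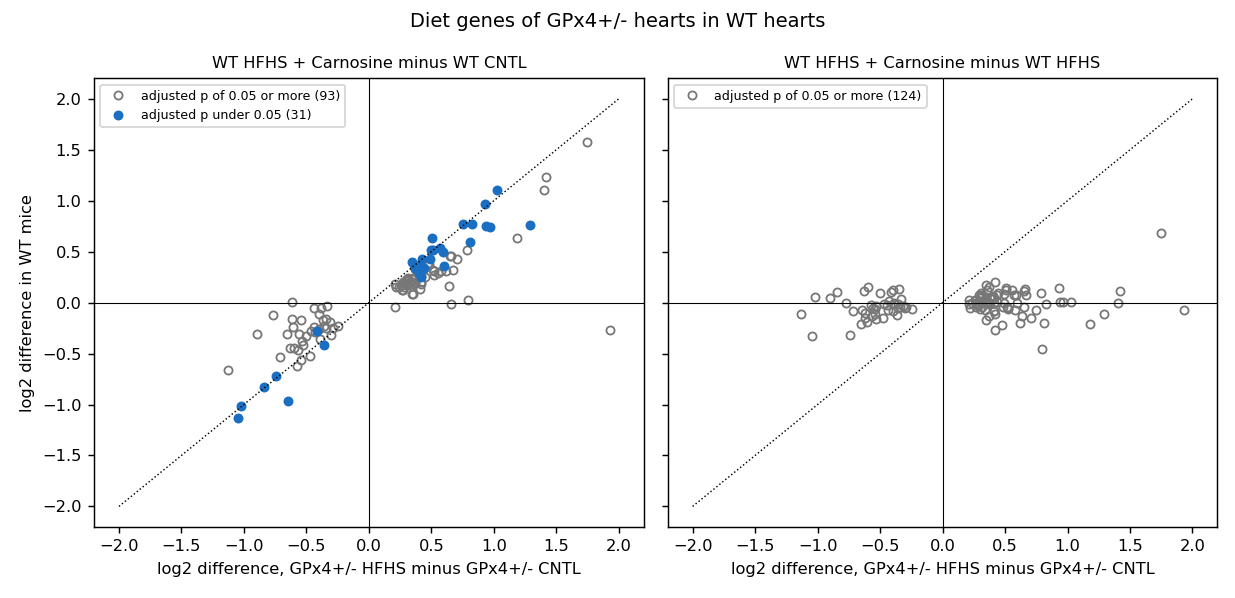
The 124 genes called for HFHS against CNTL in GPx4+/- mice, with their log2 difference there on the x axis and in WT mice on the y axis; the dotted line marks equal values. Against WT CNTL 120 of 124 WT HFHS + Carnosine values lie on the same side of 0, 31 of them called; against WT HFHS the values lie around 0 with 0 called.

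Each mouse showed this shift. The mean log2 change of the 124 genes from the WT CNTL mean, signed as in GPx4+/- mice, was 0.36, 0.34, 0.39, 0.29 and 0.43 in the 5 WT HFHS + Carnosine mice. It was 0.31 to 0.38 in WT HFHS and -0.02 to 0.02 in WT CNTL. The lowest and the highest of the HFHS mice of both groups were thus carnosine mice, replicates 4 and 5, and the range without carnosine lay inside the range with it. The 81 genes that were higher with HFHS in GPx4+/- mice and the 43 that were lower both showed it.

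**Figure D3:**
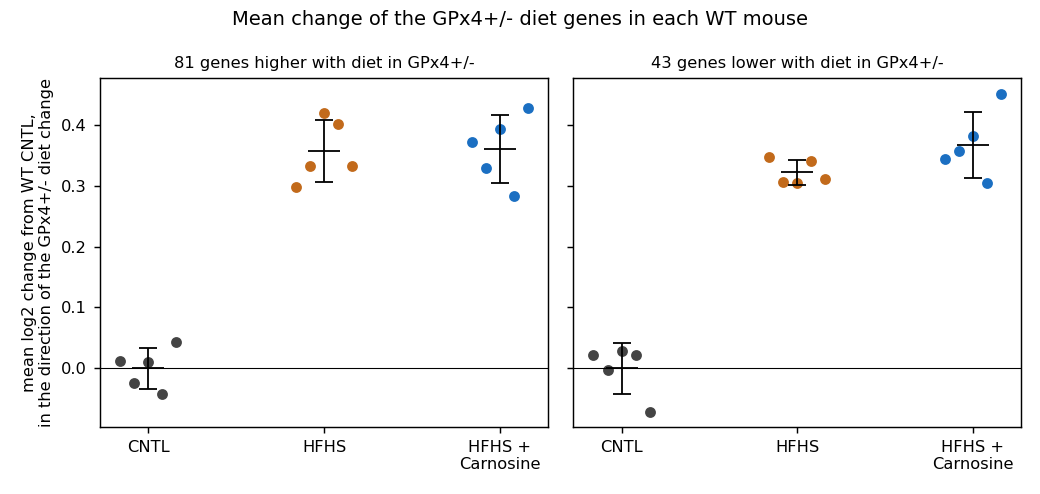
Mean log2 change from WT CNTL of the 81 higher (left) and 43 lower (right) diet genes of GPx4+/- hearts in each of the 15 WT mice, signed so that the GPx4+/- direction is positive; bars show the mean and SD (n = 5). Carnosine mice span 0.29 to 0.43 over all 124 genes and HFHS mice 0.31 to 0.38.

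By name, the genes that led the diet change in GPx4+/- mice were mixed in WT HFHS + Carnosine. Tfrc, the transferrin receptor that takes up iron, had 3.27 to 6.28 scaled TPM in GPx4+/- CNTL and 11.2 to 19.8 in GPx4+/- HFHS. In WT mice it had 6.55, 7.00, 4.29, 7.21 and 3.49 in CNTL, 10.1, 7.20, 16.9, 18.8 and 5.81 in HFHS and 26.8, 17.6, 12.5, 7.11 and 37.7 in HFHS + Carnosine. 4 of the 5 carnosine mice were above all CNTL mice and replicate 4 was among them, so the difference of 1.58 (95% interval 0.73 to 2.43) had an adjusted p of 0.0825. Between the HFHS groups Tfrc differed by 0.69 with an interval of -0.16 to 1.53. Scn4b, Nkain1, Kcnj14 and Cdkl1 passed in both genotypes, whereas Stom, Vwa7 and Tnnt1 had adjusted p of 0.103, 0.155 and 0.313 in WT HFHS + Carnosine. Fabp3, the fatty acid binding protein of cardiomyocytes, picked after its values were seen, rose in GPx4+/- mice (0.41, adjusted p = 0.0112) and had 4505 to 5201 against 5708 to 6241 here (0.26, adjusted p = 0.0707).

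Of the 80 genes, 79 had the same direction for HFHS against CNTL in GPx4+/- mice, where 8174 of all 11983 did, and 31 (38.8%) were called there, against 1.03% of all genes. Apoc1 was the exception, and in GPx4+/- CNTL it ranged from 0 to 179 scaled TPM. In that group replicate 2 had Asl at 15.8 against 3.20 to 4.81 in the others, and Gnmt at 21.2 against 2.49 to 3.62. The part of liver RNA in the GPx4+/- values of these genes was not tested. These 80 include 47 that were also called in WT HFHS against WT CNTL, where 96 genes passed (0.801%), which is 58.8% of the 80 and 49.0% of the 96. Both comparisons use the same 5 CNTL mice, so this overlap is a count and carries no test. Over the 96, the median difference signed by WT HFHS was 0.42 in WT HFHS and 0.35 in WT HFHS + Carnosine. Over the 80, signed by WT HFHS + Carnosine, the order was the reverse, at 0.49 in WT HFHS + Carnosine and 0.42 in WT HFHS. In each list the mice that chose it had the larger median, and the part of that choice in the gaps was not tested.

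The mice of both HFHS groups were then compared directly, since a gene past the threshold against CNTL in one and not in the other is not shown to differ. With limma 0 of 11983 genes passed, 571 had an unadjusted p under 0.05 and the smallest adjusted p was 0.917. In data simulated for this comparison, 200 of the 11983 genes were changed. Of these, 95% were called at a change of 1 on the log2 scale and 69.5% at 0.5. Beside them 15 and 14 unchanged genes were called. Fewer changed genes were not simulated, so these shares need not hold for them, and smaller differences may be missed. The intervals bound the differences of single genes. For Dbi the difference of carnosine minus HFHS was 0.14 (-0.03 to 0.32), for Decr1 0.12 (-0.07 to 0.32), for Oxct1 0.01 (-0.16 to 0.18), for Slc16a7 -0.33 (-0.69 to 0.02) and for Ucp3 -0.47 (-0.995 to 0.06).

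49 genes were called in WT HFHS and not in WT HFHS + Carnosine against CNTL, and 33 the other way round. All 49 differed less from CNTL with carnosine, and all 33 differed more. The calls chose both sets, so this is a description. Among all 96, the 6 with the smallest p between the HFHS groups were Prkaa2, Ndrg4, Mrtfa, 1810013L24Rik, Tmem200b and Tmem71. Prkaa2, the catalytic alpha 2 subunit of the energy sensor AMPK, had 23.9 to 25.1 scaled TPM in CNTL, 19.3 to 22.2 in HFHS and 22.2 to 25.7 with carnosine. Carnosine mice overlapped the CNTL mice, and the difference between HFHS groups was 0.18 with an interval of 0.07 to 0.28 for this gene alone and an adjusted p of 0.917. Ndrg4, a cytoplasmic protein needed for heart growth, had 110 to 128 in CNTL, 70.6 to 81.4 in HFHS and 71.6, 122, 96.8, 88.4 and 103 with carnosine, so that the 5 carnosine mice were spread over the range of both other groups. Mrtfa, a coactivator of serum response factor, had 1.62 to 2.07, 2.21 to 2.82 and 1.65 to 2.24. None of the 6 passed between the HFHS groups, and as they were picked for this difference it is a description. Over all genes the smallest p belonged to Sept1, Tcea2 and Smndc1, at -0.57, -0.55 and 0.23.

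Carnosine was studied for fibrosis, which the paper read from tissue hydroxyproline, trichrome staining and collagen cross-linking in vitro. The values here are mRNA and do not measure collagen protein or its cross-links. Most collagen genes lay above CNTL with carnosine, though none passed the test with limma. Of 19 tested fibrillar and network collagens 18 lay above 0 and the median difference was 0.31, against 0.35 in WT HFHS and 0.26 in GPx4+/- HFHS. The WT HFHS median rested on 1 mouse, being 0.16 without WT HFHS replicate 4, and that of carnosine minus HFHS turned from -0.06 to 0.10. The count of 0 of 19 says little in a list of this size when 0.668% of all genes did, and 3 (15.8%), all higher, had an unadjusted p under 0.05, near the 13.6% of all genes. Col3a1 had 33.2, 31.9, 30.8, 31.0 and 20.5 scaled TPM in CNTL and 46.7, 41.0, 44.0, 23.5 and 66.1 with HFHS and carnosine, with replicate 4 inside the CNTL range (0.53, 95% interval -0.11 to 1.16, adjusted p = 0.472). Col1a1 had 12.3 to 23.5 against 10.7 to 25.9 (0.29, adjusted p = 0.729). Col1a1 and Col3a1 were chosen after their values were seen, as the chains of the main fibrils. Col5a1, the collagen with the smallest p, had 4.61 to 5.93 in CNTL and 8.20, 7.47, 8.23, 4.99 and 8.26 (0.43, adjusted p = 0.311). Fibroblast markers lay above 0 in 8 of 8 with a median of 0.30, but 3 of them are collagens of this list, and the other 5 had a median of 0.21. The sum of all 8 was 816 to 1646 in CNTL and 948 to 1523 in carnosine mice; their part in the collagen values was not tested. Without WT CNTL replicate 3 and WT HFHS + Carnosine replicate 2 the collagen median was 0.36 and the fibroblast median 0.39.

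Enzymes that modify and join collagen chains also had 0 calls among 22 tested (13.6% at an unadjusted p under 0.05), with 17 above 0 and a median of 0.10. P4ha2, a prolyl hydroxylase that stabilises the triple helix, had 27.4 to 28.7 in CNTL and 35.0, 28.4, 36.8, 34.9 and 40.0 with carnosine (0.32, adjusted p = 0.0611), where replicate 2 lay in the CNTL range. It was called in WT HFHS, at 33.7 to 39.9 (0.36, adjusted p = 0.0339), and in GPx4+/- mice (0.51, adjusted p = 0.0112). Of 27 matrix glycoproteins and proteoglycans 0 passed (11.1% at an unadjusted p under 0.05), 17 lay above 0 and the median was 0.15; between the HFHS groups 3 of 27 were above 0 with a median of -0.25, and -0.09 without WT HFHS replicate 4, whose valve and cartilage-like markers summed to 189.6 and smooth muscle markers to 1350, the highest of the WT HFHS mice. Markers of other cell types moved with these genes between the HFHS groups, with 0 of 9 smooth muscle markers above 0 (median -0.75, and -0.45 without that mouse), 0 of 7 valve and cartilage-like ones (-1.003 and -0.34) and 1 of 8 fibroblast ones (-0.20 and -0.06). Endocardium and vein markers had 1 of 7 above 0 (-0.37 and -0.27). None of these markers was called with limma, 4, 1, 0 and 1 in turn had an unadjusted p under 0.05, and their part was not tested. The TGF-beta list, the growth factor pathway that drives matrix genes, had 0 calls of 24 (20.8% at an unadjusted p under 0.05), 12 above 0 and a median of -0.01. Tgfb1 had 8.92 to 12.0 in CNTL and 8.71 to 14.3 (0.04, adjusted p = 0.926), and its sign turned under 4 alternatives.

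**Figure D4:**
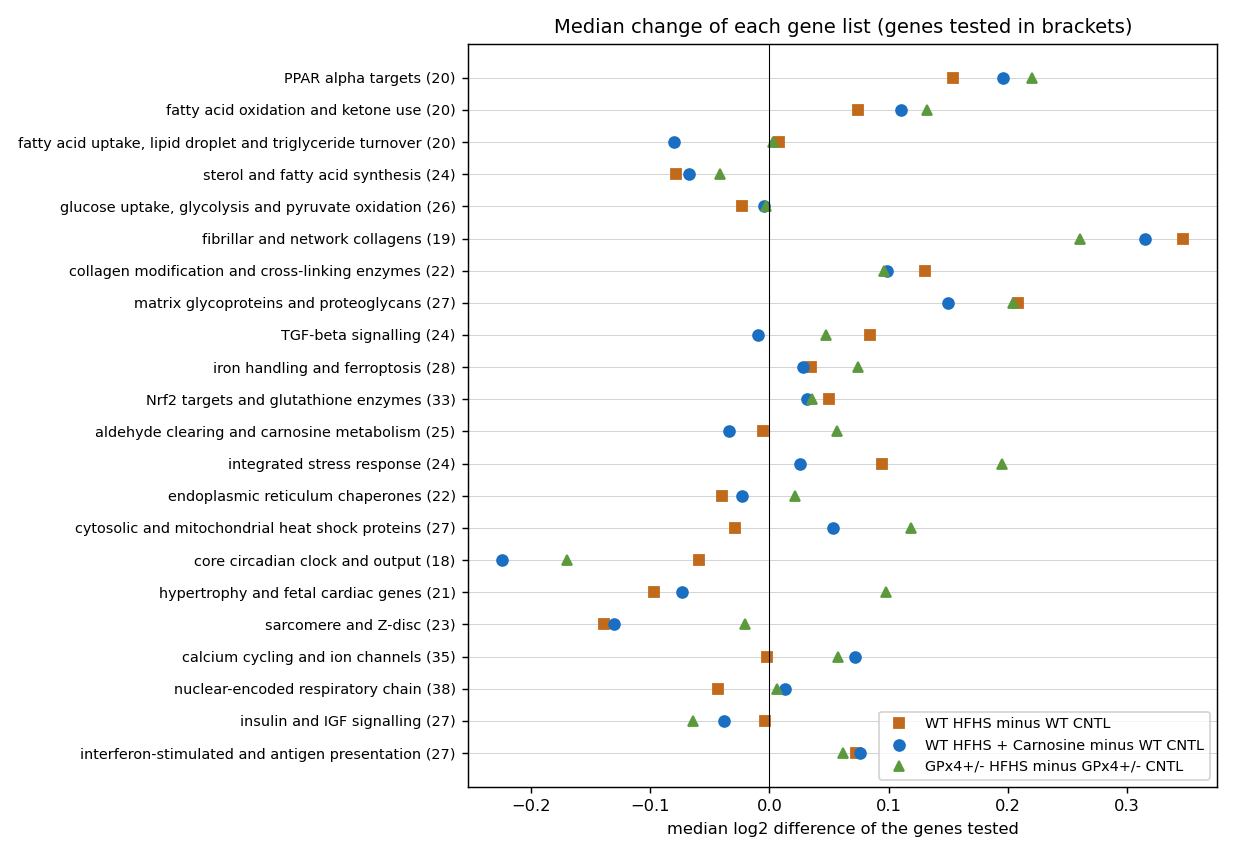
Median log2 difference of the tested genes of 22 lists (number tested in brackets) for WT HFHS + Carnosine and WT HFHS, which share the WT CNTL mice, and for GPx4+/- HFHS against GPx4+/- CNTL. Collagens have medians between 0.26 and 0.35, that of WT HFHS being 0.16 without its replicate 4, and the clock list has the lowest under carnosine, at -0.22.

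Iron, antioxidant and aldehyde genes had medians of 0.03, 0.03 and -0.03 over 28, 33 and 25 tested. None of these lists held a call with limma, and 5, 6 and 9 genes (17.9%, 18.2% and 36%) had an unadjusted p under 0.05, against 13.6% of all genes. Fth1 and Ftl1, the ferritin chains that store iron, differed by -0.00 and -0.06 (adjusted p = 0.988 and 0.841), with signs that turned under 6 and 1 alternatives. Gpx4 had 590 to 708 in CNTL and 666 to 733 with carnosine (0.06, adjusted p = 0.771), and Txn2 differed by 0.06 (adjusted p = 0.721); both turned sign under 2 alternatives, 1 of which was TPM as deposited. Cat, the peroxisomal catalase, had 124 to 137 against 139 to 166 with no overlap (0.21, adjusted p = 0.0957), and was called in WT HFHS (0.26, adjusted p = 0.0436). Gsta1, Gsr and Gpx1 had log2 differences of 0.84, 0.19 and -0.20 with adjusted p of 0.186, 0.148 and 0.396. Sod3, the extracellular superoxide dismutase, had 11.1 to 13.6, 16.3 to 24.7 and 14.0 to 17.7 in CNTL, HFHS and HFHS + Carnosine, and was called in WT HFHS (0.61, adjusted p = 0.0138) and in GPx4+/- mice but not under carnosine (0.39, adjusted p = 0.0863). Aldh9a1, which oxidises aldehydes of amines, had 22.0 to 29.0 against 16.3 to 21.2 (-0.39, adjusted p = 0.0686). Ager, the receptor for glycated proteins, was under the filter, at 0.0836 to 0.350 and 0.0740 to 0.214, and Nos2 differed by 0.16 (adjusted p = 0.745).

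The remaining lists had no call with limma. These were glucose use (26 tested, median -0.00), endoplasmic reticulum chaperones (22, -0.02), circadian clock (18, -0.22), hypertrophy and fetal genes (21, -0.07), sarcomere (23, -0.13), respiratory chain (38, 0.01), insulin signalling (27, -0.04) and interferon and antigen presentation (27, 0.08). The member with the smallest p was Eno3, Edem1, Ciart, Myh6, Myom2, Ndufs7, Igf1r and Oas1a in turn. At an unadjusted p under 0.05 there were 5, 2, 4, 5, 12, 0, 8 and 3 genes in the same order, and of the 12 sarcomere genes (52.2% of those tested) 11 were lower. Ventricular cardiomyocyte markers, 5 of 8 of which are on the sarcomere list, moved with it, with 1 of 8 above 0, a median of -0.12 (-0.15 without the 2 mice with high atrial genes) and 4 lower and 1 higher at an unadjusted p under 0.05; their part was not tested. Without those 2 mice the respiratory chain median turned to -0.09 with 0 of 38 genes above 0, where 21 had been, and that of glucose use was -0.06 with 5 of 26 above 0, where 12 had been. Myom2, an M-band protein that ties thick filaments, had 345 to 392 in CNTL and 144 to 251 in HFHS, and with carnosine 237, 198, 208, 366 and 273, where replicate 4 lay in the CNTL range (-0.52, adjusted p = 0.145). Myh6, the fast myosin of adult mouse heart, had 9110 to 9821 against 7362 to 9023 with no overlap (-0.18, adjusted p = 0.23). Ciart, a repressor of the clock, had 10.7 to 16.8 against 6.51 to 11.9 (-0.65, adjusted p = 0.0978), and 5 of the 18 clock genes lay above 0. Off these lists, and picked after their values were seen, Pfkl, a phosphofructokinase of glycolysis, and Nexn, a Z-disc protein, rose (0.32 and 0.23, adjusted p = 0.0139 and 0.0493). Over all 22 lists 13 of 548 genes tested were called (2.37%), against 0.668% of all genes.

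None of the 86 tested genes of the 13 marker lists was called with limma, which says little when 0.668% of all genes were, and 16 had an unadjusted p under 0.05. The macrophage list had 8 of 9 tested above 0, a median of 0.26 and sums of 111 to 177 in CNTL and 144 to 193 with carnosine, so the mice overlapped. Smooth muscle markers summed to 892 to 994 and 826 to 990. Hepatocyte markers summed to 15.4 to 30.9 and 21.2 to 30.3, most of it Trf, and 2 of 7 tested lay above 0 with a median of -0.25 (-0.32 without the 2 mice). Adipocyte markers summed to 560 to 854 and 560 to 690. Of these sums only the atrial, fibroblast, endocardial and valve ones set a single mouse apart, and the part of cell composition in the 80 calls was not tested beyond leaving out the 2 mice.

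**Figure D5:**
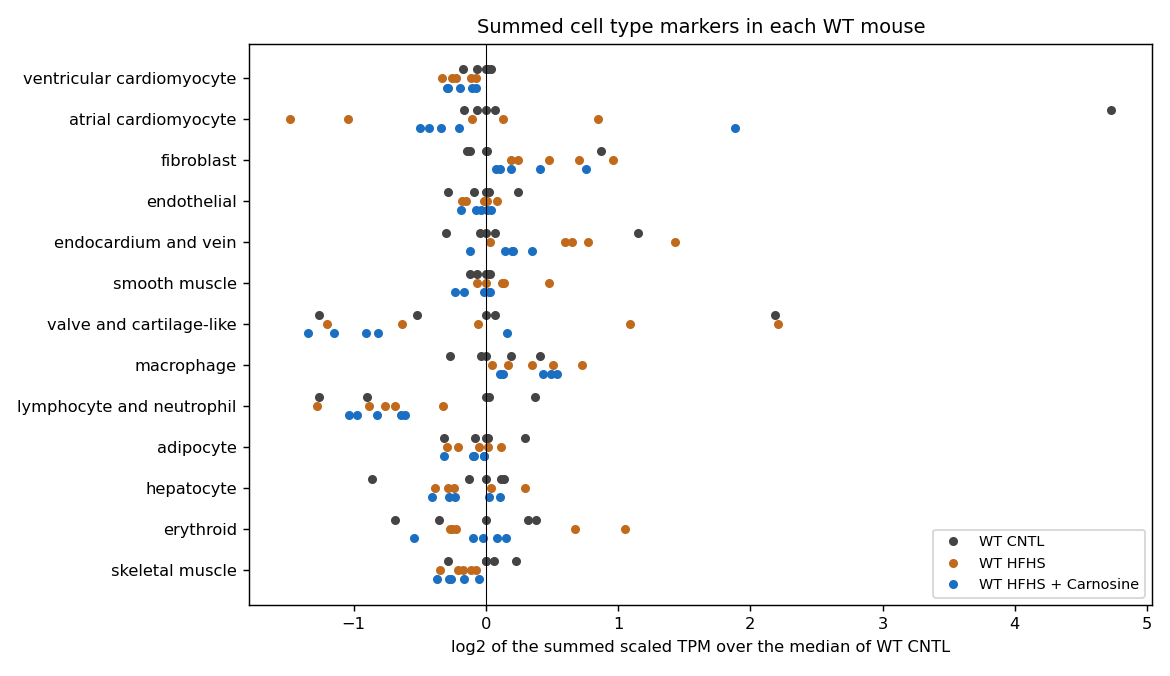
Summed scaled TPM of 13 marker lists in each of the 15 WT mice, as log2 over the median of the 5 WT CNTL mice; each point is 1 mouse. WT CNTL replicate 3 lies far to the right for atrial markers (4862 against a median of 183), and WT HFHS + Carnosine replicate 2 follows with 677.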

How the data were processed

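Left ventricular mRNA of 25 mice in 5 groups of 5 was used. The authors deposited TPM per transcript and library; the submitters' notes name kallisto 0.43.1 and sleuth 0.30.0, while the study's methods describe STAR, featureCounts and DESeq2 on GRCm38 for its own tests. Each column was matched to a mouse by its header name, since the column positions stated with the samples match the headers for 0 of 25. TPM of 116772 of 119215 transcripts were summed to 35969 GENCODE M21 genes and divided by median-ratio factors (0.865 to 1.05 in the 10 mice), which removes overall shifts. TPM keeps no depth, so counting error is not given and a value of 0 has no limit.

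The 11983 genes whose scaled TPM averaged 1 or more in all 25 mice were fitted with limma 3.58.1 (trend) in R 4.3.3 on log2(scaled TPM + 0.5), in place of the count test of the study, with the 15 WT mice in 1 fit and the 10 GPx4+/- mice in another. Adjusted p are Benjamini-Hochberg over all genes tested, called under 0.05 and two-sided. Single values can reach an exact permutation p of 0.00794 at best with 5 against 5. In simulated data with no change 0 genes were called, and with 200 changed genes 4 to 15 unchanged ones were called too.

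Named are the 10 higher and 10 lower called genes with the smallest p, the 8 and 6 leading diet genes of GPx4+/- and WT mice, the 6 WT diet genes and 3 genes overall that differed most between HFHS groups, the mRNA targets of the study's qRT-PCR, and per list the called members or the smallest p. The members and lists were chosen with earlier results of these data known. Alternatives were the pseudocount, filter, scaling, weights, mice in the fit, the replicate block, single transcripts and each mouse left out; the fixed lists and the list medians without single mice were added after seeing the data. Separate mice are the replicates. The transcript length column was not used. The GPx4+/- HFHS mice with carnosine are not analysed here. The result of a gene under the naming rule is not reported here, though counts and medians include every gene tested.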

Additional observations from a re-analysis of the deposited data

Results flagged for a closer look

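Of 162 groups of 5 mice searched, covering the genes named here and the marker sums in both groups, 14 had 1 mouse whose gap to the nearest other was over 0.71 of the group's range; chance gives about 1 in 20, or 8.1. Values are that gap as a share of the range.

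In WT CNTL replicate 3 these were the marker sums of atrial cardiomyocytes (0.994), fibroblasts (0.89), endocardium and vein (0.833) and valve and cartilage-like cells (0.847), all high, with Mrtfa high (0.948, 2.07 scaled TPM against 1.62 to 1.64) and Nos2 low (0.868, 2.36 against 3.97 to 4.22). In WT CNTL replicate 5 they were Vwa8 (0.772), Fbp2 (0.825), Cpt2 (0.847) and Myh6 (0.837), all high, which for the first 3 placed that mouse nearest to the treated ones. In WT HFHS + Carnosine replicate 2 they were the atrial sum (0.946), the valve sum (0.758) and Decr1 (0.761, 292 against 230 to 245), all high. In WT HFHS + Carnosine replicate 4 it was Col5a1 (0.758), low. What sets these mice apart was not tested.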

How the results depend on the processing

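The counts of called genes moved widely. For WT HFHS + Carnosine against WT CNTL, WT HFHS against WT CNTL, GPx4+/- diet, and GPx4+/- diet genes called with carnosine, they were 80, 96, 124 and 31. They were 26, 31, 30 and 0 with no filter; 38, 30, 144 and 12 with TPM as deposited, which moved the median of all genes by -0.07 and left 39.5% of the 38 higher, against 63.75% of the 80; 265, 379, 172 and 73 with array weights; 141, 143, 377 and 83 with all 25 mice in the fit; and 14, 31 and 18 for transcripts tested singly. With only the 10 mice of the comparison 28 genes and 18 diet genes were called, and without the 2 mice with high atrial genes 37, 193 and 15. Leaving out each mouse gave 26 (without WT CNTL replicate 2) to 155 (without WT HFHS + Carnosine replicate 4), 17 (without WT CNTL replicate 2) to 149 (without WT CNTL replicate 3), 18 (without GPx4+/- HFHS replicate 5) to 129, and 5 (without GPx4+/- CNTL replicate 5) to 40. WT HFHS + Carnosine against WT HFHS gave 0 in each. The GPx4+/- diet count fell to 18 to 33 without any of GPx4+/- CNTL replicates 1, 4 and 5 and GPx4+/- HFHS replicates 1, 3 and 5. Of the 31 named genes called with carnosine, 15 kept their call without each mouse and 16 lost it without at least 1, with an adjusted p of at most 0.111; WT CNTL replicates 4 and 2 ended 15 and 14 calls. The causes were not tested.

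The replicate numbers are those of different mice, and same-numbered mice of WT HFHS + Carnosine and WT CNTL had deviations correlated by -0.06 to 0.12, so they do not pair; as a replicate block they gave 8, 10, 3 and 0.

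Of the named genes, those near 0 turned sign against CNTL. Gpx4 became -0.0138 with TPM as deposited and -0.00755 without the 2 atrial-high mice, and Txn2 -0.0147 and -0.0159. Tgfb1 became -0.0255 with TPM as deposited and ranged from -0.0463 to 0.125 with 1 mouse left out. Fth1 became 0.00747 with quantile normalization and ranged from -0.0481 to 0.0262 with 1 mouse left out, and Ftl1 from -0.105 to 0.0259.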
